A study of Sus scrofa with 41 samples.

Results

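SLC38A2 and 6 further genes of amino acid transport and of the response to amino acid shortage were followed through psoas major muscle of 41 young boars. SLC38A2 and SLC38A6 were selected on measured values, because both had drawn attention in the analysis of feed conversion ratio (FCR) in these pigs, and SLC7A5, SLC3A2, SLC1A5, ATF4 and ASNS were listed beside them for their function. Of the 7 genes, taken by symbol from the pig Ensembl annotation, 6 had a row among the 25880 genes of the count tables, and all 6 passed the filter on low counts that left 11146 genes to be tested. ATF4 was not analysed here. The relation to FCR is therefore given as a description, whereas breed, RNA integrity, age and slaughter batch were tested.

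Muscle takes up amino acids through carriers with different partners and preferences. SLC38A2 encodes SNAT2, a sodium-coupled carrier of small neutral amino acids that cells are known to increase when amino acids run short, and the heterodimer of SLC7A5 (LAT1) and SLC3A2 (the CD98 heavy chain) exchanges intracellular glutamine for leucine and other large neutral amino acids. SLC1A5 (ASCT2) carries glutamine and other neutral amino acids. SLC38A6 belongs to the same gene family as SLC38A2, and its transport function is less well described. ASNS makes asparagine, and its transcription, like that of SLC38A2, is known to be raised by the transcription factor ATF4 when uncharged tRNA activates the kinase GCN2.

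The pigs were uncastrated purebred males of 2 Danish lines, 13 Danbred Duroc and 28 Danbred Landrace, with muscle taken directly after slaughter. The labels name no treatment and no genotype beyond the breed. Age at sampling ran from 131 to 156 days in the Duroc pigs and from 147 to 166 days in the Landrace pigs, and RNA integrity number (RIN) from 7 to 8.8 and from 6.5 to 8.3. The median FCR was 1.94 for Duroc and 2.1 for Landrace. The 5 slaughter batches held 1, 15, 9, 5 and 11 pigs, and as the only pig of batch 1 was Duroc pig 2, a model with batch as a factor takes nothing else from that pig. Each library held between 22188911 and 25954816 counts on genes, and levels are given as CPM, a gene's counts relative to the total of its library after scaling by TMM factors. The defining muscle transcripts ACTA1, CKM, TNNT3 and DES together made up 111000 to 204000 CPM in every pig, and the endothelial, leukocyte and fibroblast markers were present at far lower levels. As the tissue was sequenced in bulk, fewer cells of a type and less RNA per cell cannot be told apart. One library stood apart for these genes. Landrace pig 8, from batch 3 and with an FCR of 2.22, held the highest Landrace level of SLC38A2 and the lowest level of SLC7A5, SLC3A2 and ASNS among all 41 pigs, and results are given with and without this pig where it mattered.

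The 6 genes differed widely in how many reads lay behind them. SLC3A2 and SLC38A2 were the deepest, with 589 to 5126 counts per pig for SLC38A2, whereas SLC38A6 was counted only 16 to 50 times per pig. The variation between pigs that was left after the covariates also differed, with a biological coefficient of variation of 19.8% for SLC38A2, 27.2% for SLC7A5, 32.2% for SLC3A2, 34.4% for ASNS and 42.8% for SLC1A5. The last 4 lay above 91.6 to 95.8% of the genes nearest to them in level, so they were among the more variable genes of this muscle. SLC38A6 was estimated at 10%, lower than nearly all genes of its level. FCR, RIN, age, breed and batch together took up 76.7% of the variance of log2 CPM for SLC38A2, against 28.1 to 48.2% for the other genes. These totals include FCR, through which SLC38A2 and SLC38A6 were selected, and are a description. Leaving FCR out lowered them by 13.04 points for SLC38A2, 15.81 for SLC38A6, 13.16 for ASNS and at most 8.31 for the others.

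SLC38A2 had the clearest breed difference of the group, though not with an endothelial or fibre type level added to the joint model. It ranged from 37.3 to 183 CPM in the Duroc pigs with a median of 91.9, and from 35.7 to 108 CPM in the Landrace pigs with a median of 55.9. The ranges overlapped, but 27 of the 28 Landrace pigs lay below the Duroc median, the exception being Landrace pig 8, and 12 of the 13 Duroc pigs lay above the Landrace median. At equal FCR, RIN, age and batch the level was 1.56-fold higher in the Duroc pigs (log2 difference Landrace minus Duroc −0.64, SE 0.14, edgeR FDR = 0.00133), and without Landrace pig 8 the difference was −0.57 (FDR = 0.00188). Unadjusted means differed in the same direction within each of the 4 batches that held both breeds, by −0.78, −0.90, −0.66 and −0.35 on the log2 scale in batches 2, 3, 4 and 5. This breed difference was already visible in earlier results of these data and is no independent support for the choice of the gene.

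**Figure D1:**
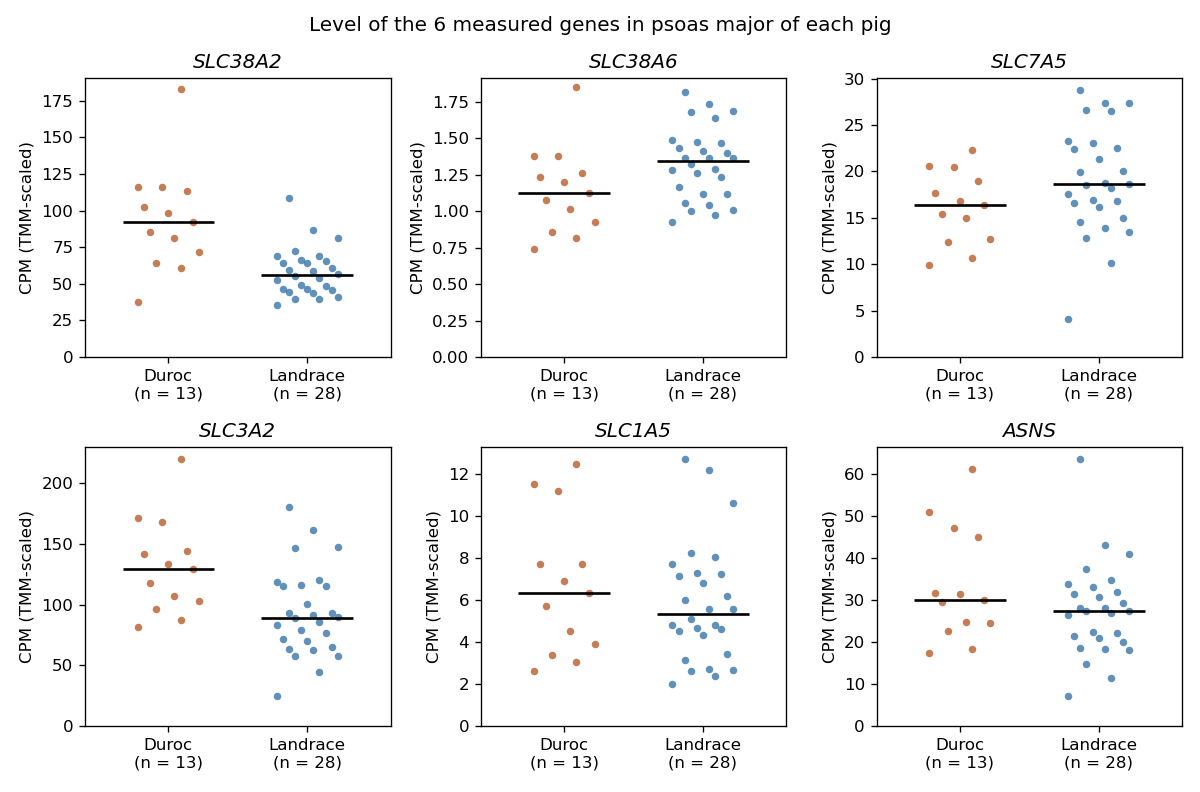
CPM of the 6 measured genes (vertical axes, starting at 0) in each Duroc pig (orange, n = 13) and Landrace pig (blue, n = 28), with black lines at the medians. For SLC38A2 the Duroc median of 91.9 CPM lies above 27 of the 28 Landrace pigs. The breeds cover nearly the same range for SLC1A5, while for ASNS 3 Landrace pigs lie below the lowest Duroc pig and 1 above the highest.

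Endothelial cell transcripts moved with breed as well. All 4 tested endothelial markers (PECAM1, CDH5, KDR and TEK) were lower in the Landrace pigs, with a median log2 difference of −0.98, and their summed level ran from 53.6 to 160 CPM in the Duroc pigs and from 29 to 136 CPM in the Landrace pigs. When the mean level of these markers was added to the model, the SLC38A2 difference was −0.35 with an SE of 0.17 and no longer passed the threshold (edgeR FDR = 0.249). Skeletal muscle fibre markers moved the other way, with 3 of 4 higher in the Landrace pigs where 15.6% of all tested genes were higher (ACTA1 0.38, CKM 0.24 and TNNT3 0.60, edgeR FDR from 0.00108 to 0.0545), and SLC38A2 residuals had r = −0.354 with their summed level over 41 pigs. Of the leukocyte markers 1 of 6, of the fibroblast markers 2 of 5 and of the tested adipocyte markers 1 of 2 (ADIPOQ, −2.67, FDR = 0.0451) were lower in the Landrace pigs, where 17.5% of all tested genes were lower. Genes of fast and slow muscle fibres, listed after their relation to SLC38A2 had been seen, also bear on this value. With a fast minus slow fibre level in the model the breed difference of SLC38A2 was −0.33 (SE 0.13, FDR = 0.0926).

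In the joint model the 2 chains of the LAT1 heterodimer differed between the breeds in opposite directions. SLC7A5, the carrier chain, ranged from 9.93 to 22.3 CPM in the Duroc pigs with a median of 16.4, and from 4.12 to 28.8 CPM in the Landrace pigs with a median of 18.6. The breeds overlapped over most of this range, and 9 Landrace pigs lay above the highest Duroc pig. In the joint model SLC7A5 was 1.51-fold higher in the Landrace pigs (log2 difference 0.59, SE 0.21, edgeR FDR = 0.0358), but this depended on the covariates and the scaling. The difference was 0.42 (FDR = 0.103) when libraries were scaled by their size only. With breed as the only term the difference was 0.24 (FDR = 0.315), and it did not pass with the endothelial (FDR = 0.494) or the fibre level (FDR = 0.407) in the model. Within batches the unadjusted difference was 0.16, 0.33, −0.16 and 0.21 in batches 2, 3, 4 and 5.

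SLC3A2, the heavy chain that brings LAT1 and several related carriers to the cell surface, ranged from 81.8 to 220 CPM in the Duroc pigs with a median of 130. In the Landrace pigs it ranged from 25.1 to 181 CPM with a median of 89.4, and 11 Landrace pigs lay below the lowest Duroc pig. The level was 1.62-fold higher in the Duroc pigs (log2 difference −0.69, SE 0.24, edgeR FDR = 0.0337). The call was kept with the endothelial level in the model (−0.99, FDR = 0.0484), with the fibre level (−0.98, FDR = 0.0092) and with each of the 41 pigs left out in turn (FDR from 0.0064 to 0.0675). Within batches 2, 3 and 5 the unadjusted difference was −0.63, −0.68 and −0.50, and in batch 4, with 3 Duroc and 2 Landrace pigs, it was 0.02.

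The ratio of the chains was formed after both differences had been seen and is therefore given without a test. It was taken as the difference of log2 CPM with a prior count of 2, so the scaling between libraries nearly cancels. The log2 ratio of SLC7A5 to SLC3A2 CPM averaged −3.005 ± 0.351 (SD, n = 13) in Duroc and −2.269 ± 0.603 (SD, n = 28) in Landrace, a difference of 0.735. Most of it lay in SLC3A2, whose unadjusted mean log2 CPM differed by −0.54 (Landrace minus Duroc), beside 0.196 for SLC7A5. All 13 Duroc pigs lay below the Landrace median, and 15 of the 28 Landrace pigs lay above the highest Duroc pig. The difference was 0.791, 1.009 and 0.706 in batches 2, 3 and 5 and −0.185 in batch 4.

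The 3 remaining genes had no breed call. SLC38A6 had a median of 1.12 CPM in the Duroc pigs and 1.34 CPM in the Landrace pigs, with a log2 difference of 0.20 (SE 0.14, edgeR FDR = 0.306). SLC1A5 ranged from 2.62 to 12.5 CPM with a median of 6.33 in the Duroc pigs and from 2 to 12.7 CPM with a median of 5.32 in the Landrace pigs. Its log2 difference of −0.68 had the largest error of the group (SE 0.35, FDR = 0.149), and it passed with DESeq2 (−0.70, FDR = 0.0924), with library size as the only scaling (−0.87, FDR = 0.0714) and without Duroc pig 3 (−0.95, FDR = 0.0485). With the endothelial level in the model it was −0.05 (FDR = 0.962). ASNS ranged from 17.4 to 61.2 CPM with a median of 29.9 in the Duroc pigs and from 7.16 to 63.5 CPM with a median of 27.4 in the Landrace pigs. For ASNS the covariates decided the sign, as the joint model gave a log2 difference of 0.42 (SE 0.26, FDR = 0.247), while breed alone gave −0.28 (FDR = 0.34) and the difference was below 0 within all 4 batches that held both breeds. In all, 1 of the 6 genes was higher and 2 were lower in the Landrace pigs, where 15.6% of all tested genes were higher and 17.5% lower.

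**Figure D2:**
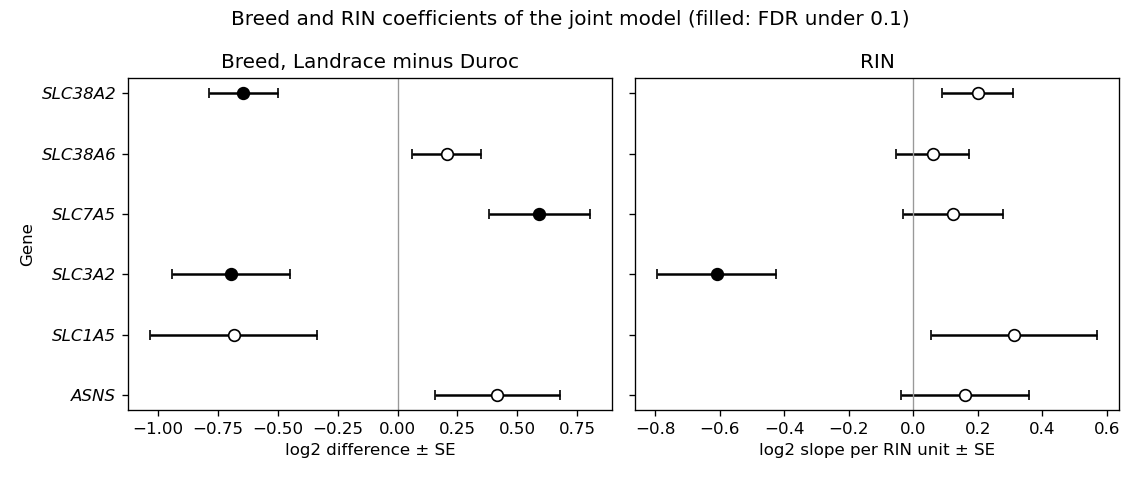
Coefficients of the joint edgeR model for the 6 genes (vertical axis), with breed (Landrace minus Duroc) on the left and RIN on the right, as log2 values with bars of 1 SE. Filled points passed an FDR of 0.1 and are SLC38A2, SLC7A5 and SLC3A2 for breed and SLC3A2 for RIN.

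RNA integrity is a known source of variation in muscle taken after slaughter, and over all genes 23.9% rose and 27.9% fell with RIN. Among the 6 genes SLC3A2 fell with RIN, by 0.61 on the log2 scale for each RIN unit (SE 0.18, edgeR FDR = 0.00722). Duroc pig 10, with the lowest RIN of its breed at 7, held the highest SLC3A2 level of all pigs, at 220 CPM, and without it the slope was −0.54 (FDR = 0.0327). Within batches the unadjusted slope was −0.195 (SE 0.262) in batch 2, 0.943 (SE 1.207) in batch 3, where RIN spanned only 7.7 to 8.3, and −0.669 (SE 0.316) in batch 5, so the estimates within batches were too imprecise to show the slope alone. With library size as the only scaling it was −0.27 (FDR = 0.228), under a scaling that moved the median RIN slope of all genes from −0.01 to 0.30 and turned the 2667 rising and 3108 falling genes into 6225 rising and 882 falling ones.

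SLC38A2 had a positive RIN slope of 0.20 (SE 0.11) that did not pass the test (edgeR FDR = 0.141). It passed without Landrace pig 8 (0.27, FDR = 0.0302), without the 2 pigs with a RIN under 7 (0.39, FDR = 0.0624) and in 16 of the 41 fits that left out 1 pig. The unadjusted slope of SLC38A2 within batches was 0.048 (SE 0.234), 1.038 (SE 0.827) and 0.490 (SE 0.209) in batches 2, 3 and 5. The slopes of SLC38A6, SLC7A5, SLC1A5 and ASNS were 0.06, 0.12, 0.31 and 0.16, with edgeR FDR from 0.334 to 0.697.

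Slaughter batch was called for SLC38A2 (edgeR FDR = 0.00587, 24.1% of all genes called). SLC38A2 averaged 63.9 ± 18.3 CPM (SD, n = 15) in batch 2, 75.6 ± 29.9 (n = 9) in batch 3, 110 ± 43.7 (n = 5) in batch 4 and 53.8 ± 16.2 (n = 11) in batch 5. Batch 4 was high in both breeds, with means of 130 CPM in the Duroc and 79.6 CPM in the Landrace pigs, and batch 5 was low in both, at 62.8 and 48.7 CPM. With FCR, RIN, age and breed held equal, batches 3 and 4 were 0.42 and 0.61 higher than batch 2 on the log2 scale and batch 5 was 0.01 lower. The other 5 genes had batch FDR from 0.193 to 0.688. Age was called for none of the 6 genes, with edgeR FDR from 0.181 to 0.631 (1.76% of all genes called). The age slope of SLC38A2 was −0.31 on the log2 scale for 10 days (SE 0.12), and 1 of the 6 genes was called for age without Landrace pig 8.

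**Figure D3:**
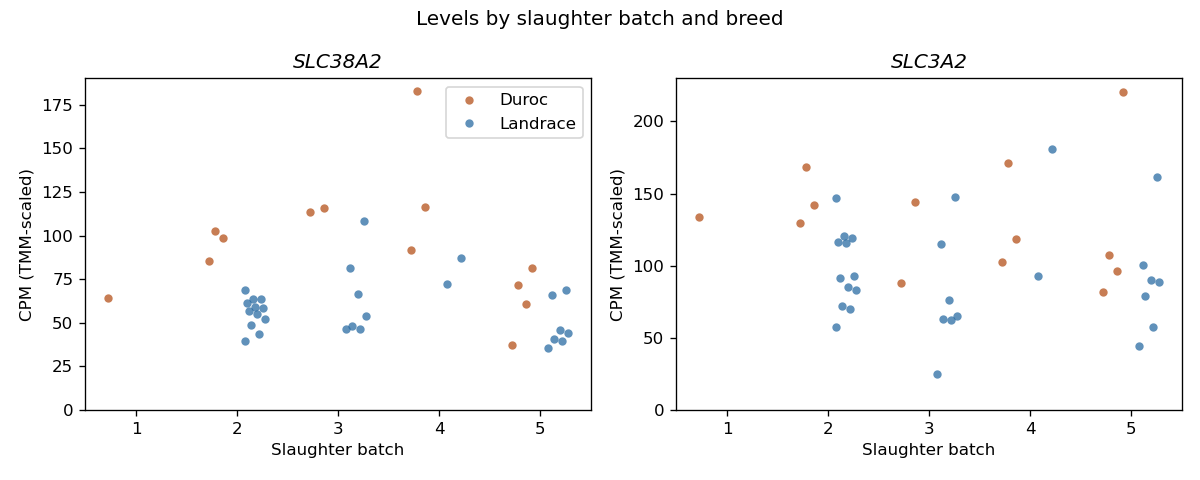
CPM of SLC38A2 (left) and SLC3A2 (right) by slaughter batch on the horizontal axis, with 1 point for each Duroc (orange) or Landrace (blue) pig. SLC38A2 averaged 110 CPM in the 5 pigs of batch 4 and 53.8 CPM in the 11 pigs of batch 5, and the Duroc pigs of a batch mostly lie above its Landrace pigs.

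The FCR slopes, through which SLC38A2 and SLC38A6 were selected, are described without a test. FCR is read here as feed over gain, so that a lower value is more efficient, as the study uses the term elsewhere and as fits recorded values near 2, although the wording of its methods has growth divided by feed. SLC38A2 had a slope of 0.24 on the log2 scale for each 0.1 of FCR (SE 0.06), SLC38A6 one of 0.15 (SE 0.05), and the slope of SLC1A5 was 0.02 (SE 0.13). The slopes of SLC7A5 (−0.15, SE 0.08), SLC3A2 (−0.08, SE 0.09) and ASNS (−0.26, SE 0.10) were negative. The median slope over all tested genes was 0.00. FCR slopes of the marker genes went both ways. They were positive for all 5 fibroblast markers (median 0.23) and for 6 of 7 tested immediate-early genes (median 0.22). Both tested adipocyte markers (ADIPOQ 1.08, SE 0.40) and 3 of 4 endothelial markers (median 0.06) were also positive. Of the leukocyte markers 1 of 6 was positive (median −0.099), and of the muscle fibre markers 1 of 4 (median −0.065). Of the 2 red blood cell markers 1 was positive. Several slopes were about as large as their SE or smaller, such as COL1A1 (0.32, SE 0.31) and DCN (0.09, SE 0.12). The part of these markers in the slopes of the 6 genes was not tested. No gene of the 11146 reached an FDR of 0.1 for FCR with edgeR (0% called), where 968 genes (8.68%) had an unadjusted p under 0.05, and DESeq2 called 5 of 10765 genes (0.0464%), with SLC38A2 among them, this being the contrast from which the gene was selected.

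The extreme pigs give the scale of these slopes. Among the Duroc pigs SLC38A2 was lowest in pig 10 (37.3 CPM, FCR 1.85) and highest in pig 7 (183 CPM, FCR 1.93). The lowest level of all 41 pigs, 35.7 CPM, belonged to Landrace pig 22 with an FCR of 2.17, and the highest Landrace level, 108 CPM, to pig 8 with an FCR of 2.22, so a high FCR was found at both ends of the Landrace range. Without Landrace pig 8 the joint slopes were 0.21 for SLC38A2, −0.10 for SLC7A5, −0.03 for SLC3A2 and −0.22 for ASNS. Over all fits that left out 1 pig the slope of SLC38A2 stayed between 0.21 and 0.27 and that of ASNS between −0.31 and −0.22. Adding the fibre level gave 0.19 (SE 0.05) for SLC38A2 and −0.22 (SE 0.09) for ASNS.

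**Figure D4:**
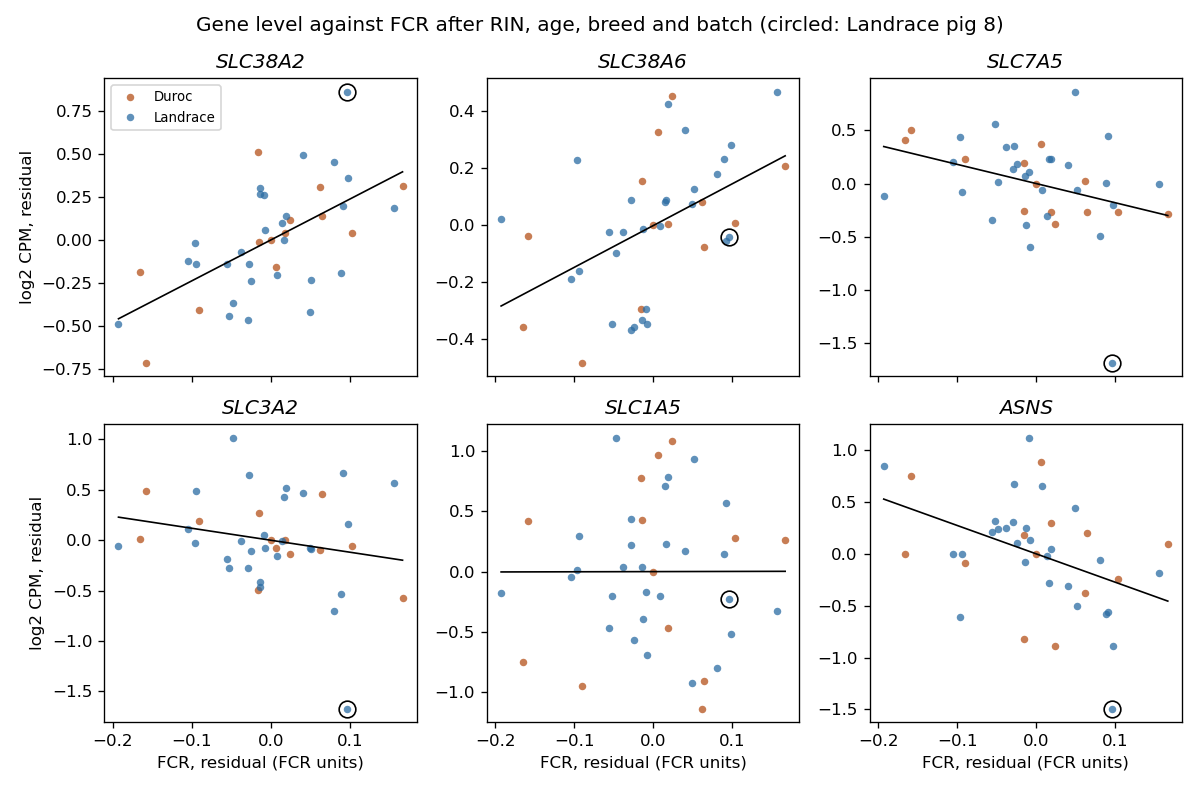
log2 CPM of the 6 genes (vertical axes) against FCR (horizontal axes), both as residuals after RIN, age, breed and batch, for 13 Duroc (orange) and 28 Landrace (blue) pigs with a least-squares line. The circled point is Landrace pig 8, which lies far above the other pigs for SLC38A2 and far below them for SLC7A5, SLC3A2 and ASNS.

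Fitted in each breed alone, the SLC38A2 slope was 0.23 (SE 0.09) in the Duroc pigs and 0.25 (SE 0.08) in the Landrace pigs, and that of SLC38A6 was 0.13 (SE 0.13) and 0.13 (SE 0.07). Without covariates the Duroc slope of SLC38A2 was 0.12 (SE 0.16), and the Landrace slope was 0.20 (SE 0.08), with 0.20 (SE 0.05) among the 12 Landrace pigs of batch 2, 0.24 (SE 0.24) in batch 3 and 0.18 (SE 0.28) in batch 5. The Duroc fit had 5 residual degrees of freedom, and without Duroc pig 11, the pig with the lowest FCR, the Duroc slope of SLC38A2 was 0.45 and that of SLC38A6 −0.01. SLC7A5 had slopes of −0.23 (SE 0.07) in the Duroc and −0.04 (SE 0.11) in the Landrace pigs, and the Landrace slope was 0.05 without pig 8. Without covariates the SLC7A5 slopes of the breeds were alike in size, −0.21 (SE 0.09) and −0.21 (SE 0.13). ASNS had slopes of −0.02 (SE 0.20) in the Duroc and −0.37 (SE 0.13) in the Landrace pigs, and −0.15 (SE 0.16) and −0.46 (SE 0.12) without covariates. Among the 6 genes no FCR by breed term passed (edgeR FDR from 0.936 to 0.994), and no slope is said to differ between the breeds. Over all genes no FCR by breed term passed with edgeR (0% called, lowest FDR 0.398), and 582 genes (5.22%) had an unadjusted p under 0.05.

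Across pigs the 6 genes did not move as 1 group. After RIN, age, breed and batch were removed, pigs with more SLC38A2 had less SLC7A5 (Pearson r = −0.608, n = 41 pigs) and less ASNS (r = −0.565). FCR, through which SLC38A2 and SLC38A6 were selected, was left in these residuals. The opposed FCR slopes of SLC38A2 and of SLC7A5 and ASNS are thus part of these correlations. The genes also share the library and its scaling, and these correlations are descriptions. Without the 2 pigs farthest from the median of SLC38A2, Landrace pig 8 and Duroc pig 10, they were −0.433 and −0.41, on log2 CPM without adjustment they were −0.284 and −0.168, and Spearman's rho over all pigs was −0.48 and −0.512. SLC7A5 and SLC3A2 had r = 0.58 (0.386 without the 2 pigs farthest from the SLC7A5 median, 0.35 without adjustment), and SLC7A5 and ASNS had r = 0.449 (0.195 without them). The correlation of SLC38A2 with SLC3A2 rested on the extreme pigs, being −0.383 with and −0.12 without them. SLC38A2 and SLC38A6 had r = 0.268, and −0.136 without adjustment. SLC1A5 followed none of the other carriers closely, with r from −0.07 to 0.299, but rose and fell with the summed leukocyte markers (r = 0.731) and fibroblast markers (r = 0.711) of the same library. The part of these cells in the SLC1A5 level was not tested.

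**Figure D5:**
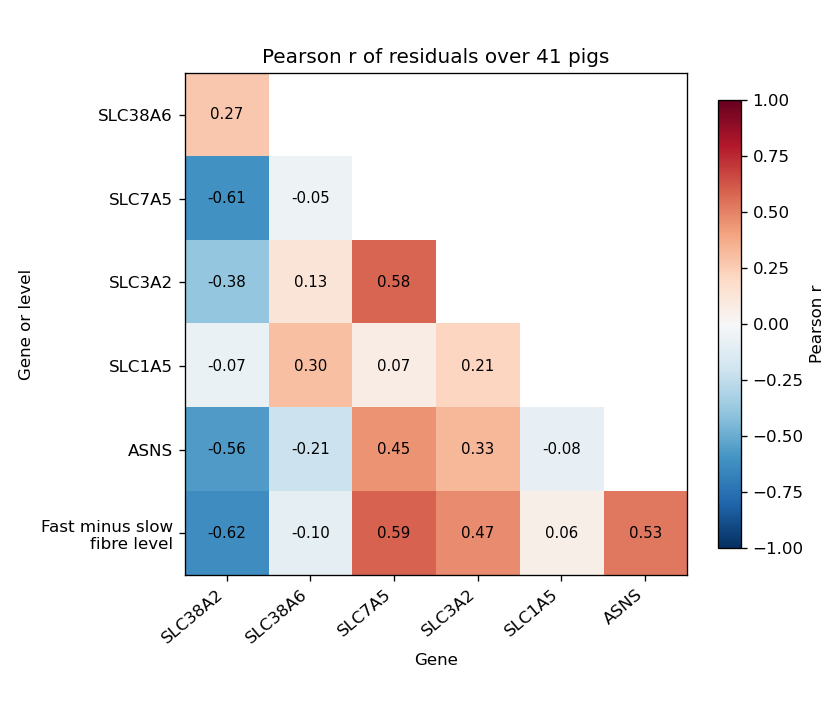
Pearson r over 41 pigs between residuals of log2 CPM after RIN, age, breed and batch, for each pair of the 6 genes and, in the lowest row, for each gene with the fast minus slow fibre level. Red is positive and blue negative, and SLC38A2 stands opposite to SLC7A5, ASNS and the fibre level. Its r of −0.383 with SLC3A2 was −0.12 without the 2 extreme pigs. FCR was left in the residuals.

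Of 11145 other genes, those whose residuals were most like SLC38A2 were VPS13D, a lipid transfer protein (r = 0.739), LPGAT1, an acyltransferase (r = 0.726), SYNPO2, an actin-binding protein of the Z-disc (r = 0.717), and 2 genes without a symbol, ENSSSCG00000039009 (r = 0.738) and ENSSSCG00000030260 (r = 0.707). Most opposed were MYOZ3, a calsarcin of fast fibres (r = −0.778), MYBPC2, the fast form of myosin-binding protein C (r = −0.746), ENSSSCG00000036434 (r = −0.743), BIN1, which shapes T-tubules (r = −0.732), and SURF2 (r = −0.725). Without Landrace pig 8 and Duroc pig 10 these 10 correlations ranged from 0.585 to 0.676 and from −0.686 to −0.602. On log2 CPM without adjustment only 1 of these 10 genes stayed among the 5 highest or 5 lowest. FCR was left in these residuals as well.

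As fast fibre genes stood at the opposed end, fibre genes were then looked at as groups chosen after that was seen. All 9 tested fast fibre genes had a negative r with SLC38A2, from −0.778 to −0.219 with a median of −0.652. MYOZ3 and MYBPC2, which prompted the list, are counted among the 9, and the lowest of the others was TNNT3 at −0.7. All 7 tested slow fibre genes had a positive r, from 0.215 for CSRP3 to 0.465 for ATP2A2. The median of all tested genes was 0.017. The fast minus slow fibre level itself had r = −0.624 with SLC38A2, 0.586 with SLC7A5, 0.471 with SLC3A2 and 0.529 with ASNS. Landrace pig 8 had by far the lowest fast minus slow level, at −4.968 where the lowest Duroc pig was at −1.864, and without this pig and Landrace pig 10 the values were −0.524, 0.389, 0.142 and 0.401. SLC38A6 and SLC1A5 had r of −0.1 and 0.055. The residuals again had FCR left in. Whether the fibre types of the sampled piece set these levels was not tested.

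The other genes of the pathway were taken from lists set by function. Of 46 other amino acid transporters 20 were tested, and 2 were higher and 5 lower in the Landrace pigs, beside 15.6% and 17.5% of all tested genes (median log2 difference −0.26, against 0.00 over all genes). With RIN 1 rose and 2 fell, beside 23.9% and 27.9% of all tested genes. SLC38A4, a system A carrier like SLC38A2, had the largest of the named differences, from 22.1 CPM in the Duroc to 6.96 CPM in the Landrace pigs (−1.65, edgeR FDR = 1.45e-05). The taurine carrier SLC6A6 (−1.07, FDR = 0.00227) and SLC38A9, the lysosomal arginine sensor (−0.46, FDR = 0.00461), were lower and SLC38A7 was higher (0.42, FDR = 0.0239) in the Landrace pigs. With RIN, the aromatic amino acid carrier SLC16A10 rose (0.36 for each unit, FDR = 0.00641), while SLC38A10 (−0.22, FDR = 0.0721) and SLC38A5 (−0.40, FDR = 0.0968) fell. SLC36A1 had a slope of 0.27 that did not pass (FDR = 0.115).

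Of 27 other amino acid response genes 21 were tested, and 1 was higher and 2 were lower in the Landrace pigs, beside 15.6% and 17.5% of all genes, with a median difference of 0.04. VEGFA (−0.85, edgeR FDR = 0.001), the angiogenic growth factor, and MTHFD2 (−0.53, FDR = 0.00499), a mitochondrial folate enzyme, were lower, and EIF4EBP1 (0.46, FDR = 0.0156), the repressor of cap-dependent translation, was higher in the Landrace pigs. ALDH18A1 had a difference of −0.73 that did not pass (FDR = 0.104). With RIN 4 genes of the list rose and 5 fell, beside 23.9% and 27.9% of all genes. SESN2 (−0.91, FDR = 7.1e-05), EIF4EBP1 (−0.50, FDR = 0.000146) and CEBPB (−0.47, FDR = 0.00129) fell, and VLDLR rose (0.55, FDR = 0.000377).

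All 9 genes of eIF2 kinases and phosphatase subunits, which act on translation initiation and not only under amino acid shortage, were tested. For breed 2 were higher in the Landrace pigs, EIF2S1 (0.33, edgeR FDR = 0.000583) and the GCN2 inhibitor IMPACT (0.44, FDR = 0.00129), and EIF2AK3 was lower (−0.46, FDR = 0.0659), beside 15.6% and 17.5% of all genes. PPP1R15B had a difference of −0.24 (FDR = 0.106). With RIN 6 of the 9 rose and 1 fell, beside 23.9% and 27.9% of all genes, with a median slope of 0.33 against −0.01 over all genes. EIF2S1 (0.33, FDR = 3.83e-06), PPP1R15B (0.38, FDR = 0.000381), IMPACT (0.34, FDR = 0.00066) and EIF2AK1 (0.57, edgeR FDR = 0.00087) were among those that rose.

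Of 26 genes of amino acid sensing for mTORC1, 23 were tested, with 3 higher and 2 lower in the Landrace pigs, beside 15.6% and 17.5% of all genes. SESN1, a leucine-responsive regulator (0.73, edgeR FDR = 0.00167), SEH1L (0.46, FDR = 0.000338) and SEC13 (0.23, FDR = 0.019), both of the GATOR complex that governs the Rag GTPases, were higher, and FNIP2 (−0.51, FDR = 0.0128), a partner of folliculin, was lower. With RIN 4 rose and 6 fell, beside 23.9% and 27.9% of all genes. SEH1L rose (0.31, FDR = 0.000402), and those that fell included the Ragulator subunits LAMTOR2 (−0.68, FDR = 1.33e-08), LAMTOR1 (−0.42, FDR = 3.66e-05) and LAMTOR5 (−0.48, FDR = 4.43e-05).

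Of 14 enzymes of glutamine and branched-chain amino acids 11 were tested, and 1 was higher and 5 were lower in the Landrace pigs, beside 15.6% and 17.5% of all genes, with a median of −0.19. The cytosolic aspartate aminotransferase GOT1 (−0.72, edgeR FDR = 0.00214), the kinase BCKDK that inhibits branched-chain keto acid oxidation (−0.32, FDR = 0.00422) and DBT (−0.55, FDR = 0.00608), a subunit of that oxidising complex, were lower. BCKDHB, another subunit, was higher (0.33, FDR = 0.0144). With RIN 3 rose and 4 fell, beside 23.9% and 27.9% of all genes, and BCKDHA (−0.47, FDR = 4.39e-07) and BCAT2 (−0.37, FDR = 3.84e-05) fell where BCKDHB rose (0.28, FDR = 0.00473).

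The annotated genes lie apart on the genome. On Sscrofa11.1, RefSeq places SLC38A2 at chr5:77113491-77127715, SLC38A6 at chr1:189923385-189988562, SLC3A2 at chr2:8892071-8919070 and ASNS at chr9:77318341-77336290. SLC7A5 (chr6:1545940-1574298) and SLC1A5 (chr6:52647432-52661464) share a chromosome but are not neighbours. The counts cover the whole annotated gene, so no exon or untranslated part can be singled out, and as no exon lengths were used here, levels were not compared between genes. Counting did not use strand, and the deposited counts of the separate strands summed to between 100 and 100.2% of the unstranded count, so few reads of these 6 genes were shared with an overlapping gene on the other strand.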

How the data were processed

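One library of poly(A) RNA from psoas major muscle was sequenced for each of 41 boars (13 Duroc, 28 Landrace). Per the paper's methods and the submitters' processing notes, the authors used Trimmomatic 0.39 for trimming and STAR 2.7.1a for alignment to Sscrofa11.1, and deposited whole counts per Ensembl gene without normalization. The unstranded counts were used. The 4 rows that name no gene were kept out; 69.9 to 80.9% of read pairs were counted on a gene. The counts of all 820 library pairs differed beyond counting noise. Precision is limited by variation between pigs and, for SLC38A6, by 16 to 50 counts per pig.

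Breed, FCR, RIN, age and batch came from the labels. Counts were modelled on these terms, batch as a factor of 5 levels, with the quasi-likelihood test of edgeR 4.0.16 (legacy form, TMM, filterByExpr with a minimum count of 10) in R 4.3.3. SE was derived from the F statistic. FDR is Benjamini-Hochberg over 11146 genes with a threshold of 0.1, and FCR slopes in each breed used the model without breed. Residuals of log2 CPM, with a prior count of 2, were taken after RIN, age, breed and batch, with FCR left in. Alternatives were DESeq2 1.42.0 (at least 5 counts in every pig, 10765 genes), limma 3.58.1 with voom, other scalings and filters, other covariates, and each pig left out in turn. The steps were tested on simulated data. The symbol table matched 14857 identifiers.

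The genes and lists were chosen with earlier results of these data known. From each list the 4 genes with the smallest p for breed and for RIN are named, apart from 1 that is not reported here, and the 5 genes with the highest and the 5 with the lowest residual correlation to SLC38A2. The fibre gene groups, the models with a fibre or endothelial level (mean of scaled log2 CPM), without FCR or with breed alone, and the ratio were added after the data were seen. Pigs are numbered within breed in the order of the records. Nothing says that the pigs were unrelated, so p-values measure the spread between these animals.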

Additional observations from a re-analysis of the deposited data

Results flagged for a closer look

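Groups of 4 to 10 pigs of 1 breed and batch were screened on log2 CPM for a pig far from the others, 18 groups over the 6 genes, and 2 stood out. Chance alone marks about 1 in 20 groups. Landrace pig 8 of batch 3 had 4.12 CPM of SLC7A5, with a gap to the nearest of the 7 pigs of 0.666 of the group's log2 range, against a critical value of 0.568. On the CPM scale itself the gap was 0.449 of the range and did not pass. Landrace pig 22 of batch 5 had 18.2 CPM of ASNS, the lowest of 7 pigs, with a gap of 0.636 of the log2 range, and of 0.56 on the CPM scale, where it did not pass.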

How the results depend on the processing

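No paired analysis was possible because the replicate numbers only follow the order of the records and the breeds are different pigs. The count of genes called for breed was 3, from 3 to 4 with other scalings, filters, tools and covariates and from 3 to 4 with a pig left out, 3 without FCR, 2 with breed alone, 2 with the fibre level and 1 with the endothelial level added. The count for RIN was 1 and was 5 with library size as the only scaling, 2 without a filter on low counts, 2 with batch as a number, 2 without the 2 pigs with a RIN under 7, 2 with the fibre level, and 1 to 2 with a pig left out. The count for batch was 1, with 0 where batch was a number and 1 to 2 with a pig left out. That for age was 0, with 1 with the fibre level added and 0 to 1 with a pig left out. That for FCR was 0, and 1 with DESeq2. The cause of these shifts was not tested, apart from library size as the only scaling, which moved the median RIN slope of all genes from −0.01 to 0.30 and gave 534 higher and 3596 lower genes for breed, where TMM gave 1737 and 1955.

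For SLC38A2 the breed difference was −0.35 with the endothelial level and ran from −0.70 to −0.57 with a pig left out. Its RIN slope was 0.51 with library size only, 0.27 without the filter, 0.39 with batch as a number, 0.39 without the pigs with a RIN under 7, 0.29 with the fibre level, 1.04 and 0.49 within batches 3 and 5, and 0.14 to 0.33 with a pig left out. Its FCR slope was 0.30 with library size only, and 0.17 to 0.45 in the Duroc pigs with a pig left out.

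Signs turned as follows. The breed difference of ASNS was −0.28 with breed alone and −0.41, −0.32, −0.30 and −0.21 within batches 2, 3, 4 and 5, that of SLC7A5 was −0.16 and that of SLC3A2 0.022 within batch 4, and that of SLC1A5 was 0.22 within batch 2. RIN slopes within batch 5 were −0.20 for SLC38A6, −0.056 for SLC7A5, −0.22 for SLC1A5 and −0.003 for ASNS, that of SLC3A2 was 0.94 within batch 3, and that of SLC38A6 ran from −0.047 to 0.141 with a pig left out. Some FCR slopes also changed sign. That of SLC3A2 in Landrace was 0.08 with batch as a number, 0.0035 without age and ran from −0.14 to 0.05 with a pig left out, that of SLC7A5 there ran from −0.10 to 0.05, and those of ASNS in Duroc were 0.02 with library size only and −0.14 to 0.08 with a pig left out. That of SLC38A6 in Duroc ran from −0.01 to 0.21. Those of SLC1A5 were −0.02 with the endothelial level and −0.05 to 0.06 with a pig left out over both breeds, −0.42 to 0.37 in Duroc, and 0.03 with library size only, 0.08 without age and −0.10 to 0.03 with a pig left out in Landrace. Of the 10 genes most like or opposed to SLC38A2, 1 was shared without adjustment.

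The limits are those of the design. FCR, age and breed are related in these pigs, batch 1 holds 1 pig, and the Duroc fit leaves 5 residual degrees of freedom. SLC38A6 rests on 16 to 50 counts per pig.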

Other observations

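Red blood cell transcripts (HBB and ALAS2) both fell with RIN in these libraries, by 1.26 and 1.05 on the log2 scale for each unit (edgeR FDR = 0.00335 and 0.0217). Of 5 fibroblast transcripts 2 rose with RIN and none fell, beside 23.9% and 27.9% of all tested genes, and these were PDGFRA and LUM (1.62, FDR = 0.000875, and 1.06, FDR = 0.000717). Of 7 tested immediate-early genes 1 was lower in the Landrace pigs and none was higher, beside 17.5% and 15.6% of all tested genes, and this was IER2 (−0.83, FDR = 0.00724). The summed level of all 9 listed ones ran from 338 to 908 CPM in the Duroc and from 266 to 1180 CPM in the Landrace pigs. Landrace pig 8 ranked 40 of 41 for the summed muscle fibre markers, 5 for the endothelial markers and 3 for the red blood cell markers.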
